A study of Mus musculus with 21 samples.

Results

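The 10 genes described here are the PPAR receptors and a set of genes for the import, oxidation and storage of fatty acids that PPARs are known to control. They are Ppara, Ppard, Pparg, Cpt1a, Slc25a20, Acadvl, Hadha, Pdk4, Angptl4 and Plin2, taken by name from the 28987 gene identifiers of the expression table, and all 10 were found there. The data are 21 RNA-seq libraries of bone marrow cells sorted from pooled mice. Of these, 15 are of LT-HSC, long-term haematopoietic stem cells that can rebuild the blood for life, and 6 of MPP, the multipotent progenitors they give rise to. The 7 groups hold 3 libraries each. In batch 1 the knockouts are titled VaviCre+Rxrabfl/fl, that is, Cre recombinase driven by the blood cell promoter Vav1 on floxed alleles of Rxra and Rxrb, and their controls are Rxrabfl/fl mice without Cre, with both LT-HSC and MPP sorted from each. Batch 2 holds LT-HSC of Vav1Cre+Rxrabfl/fl Myclfl/+ mice, of Vav1Cre+Rxrabfl/fl mice and of Vav1Cre+WT controls, which carry Cre but no floxed allele. The floxed Myc-family allele is written Mycl in the titles and Myc in the sample descriptions, so that group is called the Myc allele group. Vav1 drives Cre throughout the blood system, so cells other than the sorted ones carry the deletion too. Ages were not used here.

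Peroxisome proliferator-activated receptors (PPAR) are nuclear receptors that sense fatty acids and bind DNA only as pairs with a retinoid X receptor (RXR), at repeats of a short core motif. Their known targets carry fatty acids into mitochondria, oxidise them there and hold the surplus in lipid droplets. PPARα leads this programme in liver, PPARγ in fat cells and PPARδ in many tissues, and in mouse haematopoietic stem cells the PPARδ and fatty acid oxidation pathway is known for its part in stem cell maintenance.

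The 250 bases before a RefSeq transcription start are shown for 3 of the genes. On the main scale described below, their changes in LT-HSC knockouts of batch 1 were nearest to the threshold of the test or past it. Binding of PPAR and RXR pairs to these bases was not tested. The sequences are from RefSeq on build GRCm38.p6, in the direction of transcription, and capitals mark the core motif AGGTCA read on the other strand.
Pdk4, chr6:5496279-5496528, minus strand: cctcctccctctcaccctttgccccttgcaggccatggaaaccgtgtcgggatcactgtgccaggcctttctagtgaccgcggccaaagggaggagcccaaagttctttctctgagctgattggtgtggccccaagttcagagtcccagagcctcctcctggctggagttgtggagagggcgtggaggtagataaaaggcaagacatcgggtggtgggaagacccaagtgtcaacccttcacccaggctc
Cpt1a, chr19:3323051-3323300, plus strand: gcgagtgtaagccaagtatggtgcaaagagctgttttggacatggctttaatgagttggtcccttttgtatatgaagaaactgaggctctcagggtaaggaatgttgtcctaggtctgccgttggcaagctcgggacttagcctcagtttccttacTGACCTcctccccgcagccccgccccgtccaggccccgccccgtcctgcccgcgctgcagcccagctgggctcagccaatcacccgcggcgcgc
Hadha, chr5:30154981-30155230, minus strand: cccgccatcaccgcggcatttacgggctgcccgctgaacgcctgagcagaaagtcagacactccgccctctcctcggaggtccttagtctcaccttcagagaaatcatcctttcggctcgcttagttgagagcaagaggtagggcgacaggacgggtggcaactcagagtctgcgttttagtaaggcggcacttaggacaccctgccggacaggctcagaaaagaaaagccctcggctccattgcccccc
The Cpt1a window holds 1 AGGTCA core, starting 94 bases before the start site, and the windows of Pdk4 and Hadha hold none. The Cpt1a window lies inside the span of that gene (chr19:3322326-3385735), so its start site is not the outermost of the gene. RefSeq windows of 250 bases before to 50 after a start were found for 9 of the 10 genes (11 windows), the exception being Angptl4. On both strands, AGGTCA was found in windows of 4 of them, Cpt1a, Acadvl (87 bases before the start), Plin2 (218 bases before) and Pparg (in a pair of its windows, 28 and 9 bases before), and over all genes 16.3% of 32851 windows of the same length hold it. The full repeat AGGTCANAGGTCA and the looser AGGNCANAGGNCA were in no window of these genes, against 0.0396% and 0.381% of all windows. Of the palindrome CACGTG, the core that Myc binds, Plin2 had 1, and 7.15% of all windows hold it. The core AGGTCA is part of both longer repeats, and a match or its absence in these windows describes letters, not binding.

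The deposited values are TPM, transcript abundances per unit length, and they keep no sequencing depth. The deposited columns sum to 691094 to 918942. A single identifier took between 15.27% and 56.49% of its library's sum, so each library was divided by a size factor (0.661 to 1.46) computed from 14964 genes above 0 in every library, and the levels below are these rescaled TPM. In LT-HSC of batch 1 the size factors were 1.14, 1.46 and 1.37 in knockouts and 0.989, 0.661 and 0.940 in floxed controls, without overlap. The 56.49% and the 0.661 both belong to floxed control 2. The number of falls in these knockouts therefore depends on this rescaling, with 394 genes lower on the rescaled TPM and 86 on the deposited TPM (adjusted p under 0.05 by limma). On the deposited TPM the median gene was 0.52 higher on the log2 scale in LT-HSC knockouts than in floxed controls of batch 1, and on the rescaled TPM it was 0.02 lower. Tests are limma's, on log2(rescaled TPM + 1), with p-values adjusted by Benjamini-Hochberg over all genes of a fit, and "rose" or "fell" means an adjusted p under 0.05. The pseudocount of 1 makes the log2 changes of low genes too small, and in bulk RNA fewer expressing cells and less RNA per cell cannot be told apart. The LT-HSC marker list of 10 genes summed to 80.9 to 106 rescaled TPM in MPP of batch 1, against 388 to 692 in LT-HSC of batch 1. The MPP list of 8 genes summed to 1090 to 1888 in MPP, against 65.7 to 104 in LT-HSC. Of 8 adipocyte markers, the cells in which Pparg and several of its targets are highest, at most 2 averaged 1 rescaled TPM in any group, and the fat cell droplet protein gene Plin1 was at 0 in all 21 libraries.

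The targeted genes were checked first. Rxrb had 8.16, 6.76 and 9.17 rescaled TPM in LT-HSC knockouts and 15.1, 11.4 and 14.9 in floxed controls of batch 1. It fell (log2 change -0.71 ± 0.15 SE, adjusted p = 0.0283 by limma). The call was lost on the deposited TPM (log2 change -0.14, adjusted p = 0.600 by limma) and without floxed control 1, knockout 2 or knockout 3 (adjusted p = 0.0513, 0.0987 and 0.0959 by limma). In MPP it had 9.56, 9.48 and 11.7 rescaled TPM in knockouts and 15.0, 18.05 and 17.9 in floxed controls, with an adjusted p of 0.0748 (limma). Rxra mRNA averaged 2.40 ± 0.35 in LT-HSC knockouts and 4.53 ± 1.77 in floxed controls (SD, n = 3 each), which did not pass (adjusted p = 0.0873 by limma). The share of splice reads that skip a cassette exon of Rxra had a value in 1 of the 3 LT-HSC knockouts of batch 1 (0.938) and in a pair of MPP knockouts (1 and 0.5), and among the 6 floxed controls it was 0.1 in the LT-HSC library numbered 2 and 0 in the others. In batch 2 that share was 0, 0.0127 and 0 in the libraries labelled knockout, 0.647, 0 and 1 in the Myc allele group and 0 in each Cre control. The batch 2 group is therefore called the labelled knockout throughout. Its Rxrb was 14.6, 13.8 and 10.2 rescaled TPM, against 14.2, 15.0 and 13.1 in Cre controls. Its Rxra mRNA was 1.44, 3.69 and 9.65 rescaled TPM from lowest to highest, against 3.88 to 4.53 in Cre controls. The number of reads behind the splice shares is unknown.

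Ppard (chr17:28232754-28301469 on GRCm38.p6, like the positions below) was the PPAR receptor gene with a clear level in these cells. Its rescaled TPM was 4.71 to 8.23 in MPP knockouts, 4.96 to 7.21 in MPP floxed controls, 6.36 to 6.77 in LT-HSC knockouts of batch 1 and 4.67 to 7.63 in their floxed controls. In batch 2 it was 5.98, 11.9 and 5.30 in the Myc allele group, 2.96, 0.599 and 3.68 in labelled knockouts and 3.20, 3.72 and 2.21 in Cre controls. The batch 2 Cre controls therefore lie below every floxed control of batch 1, and batch and control genotype cannot be told apart in that difference. Ppara (chr15:85734910-85806851), the fasting receptor of liver, ranged over 0.0179 to 0.282 rescaled TPM in the 21 libraries. Pparg (chr6:115360879-115490404), the fat cell receptor, ranged over 0 to 0.533 and was listed at 0 in 4 libraries. Neither reached 1 TPM in any library on either scale, so neither was tested.

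The enzymes of the oxidation route were the highest of the 10 genes. TPM are per length, so levels of different genes can be set side by side. In LT-HSC floxed controls of batch 1 Acadvl (very long-chain acyl-CoA dehydrogenase, the entry step of mitochondrial oxidation) averaged 39.9 ± 7.9 rescaled TPM, Hadha (a subunit of the trifunctional protein that carries out the next steps) 37.2 ± 4.5, and Cpt1a (the carnitine transferase that gates entry into mitochondria) 30.4 ± 7.0 (SD, n = 3 each). Plin2, which coats lipid droplets, averaged 21.1 ± 3.7 there, and Slc25a20, the carrier that swaps carnitine and acylcarnitine across the inner membrane, 8.35 ± 1.5 (SD, n = 3 each). Ppard followed at 6.14 ± 1.5, then the secreted lipoprotein lipase inhibitor Angptl4 at 2.91 ± 0.57 and Pdk4, the kinase that turns off pyruvate dehydrogenase, at 1.51 ± 0.59 (SD, n = 3 each). The ranges of the neighbours Acadvl, Hadha and Cpt1a overlap, and so do those of Cpt1a and Plin2, and of Slc25a20 and Ppard. Plin2 lay above Slc25a20, Ppard above Angptl4 and Angptl4 above Pdk4 in all 3 libraries. Over the 21 libraries Slc25a20 lay between 5.69 and 11.7. Ppard lay between 0.599 and 11.9, its lowest value being 1 labelled knockout library and the next lowest 2.21 in a Cre control.

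**Figure D1:**
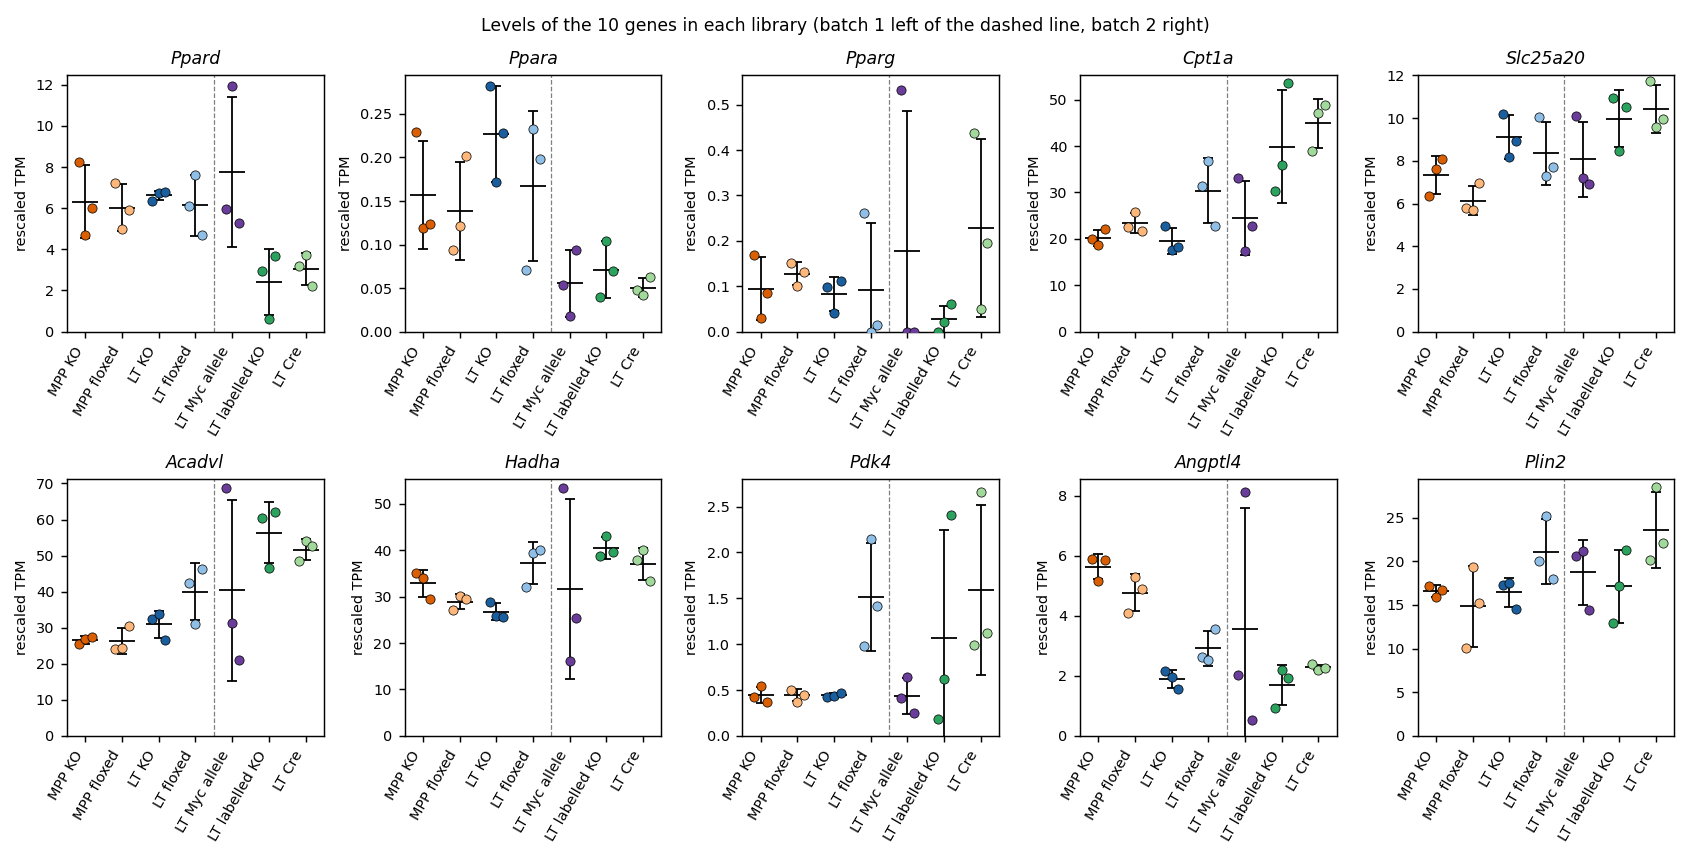
Rescaled TPM (vertical axes, each starting at 0) of the 10 genes in each of the 21 libraries, in 7 groups of 3. Points are libraries and bars the mean ± SD, cut at 0 where they would go below it. Pdk4 stands above 0.9 in the 3 LT-HSC floxed and 3 Cre controls and at or below 0.64 in MPP, in LT-HSC knockouts of batch 1 and in the Myc allele group.

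The first comparison sets LT-HSC knockouts against floxed controls. Knockouts of batch 1 carry Cre and their controls do not, so Cre and loss of RXR cannot be told apart in either cell type. In batch 1 the entry and oxidation genes Cpt1a and Hadha were lower in knockouts on the rescaled scale, just short of the threshold, while Pdk4 was lower in every knockout and passed when low genes were kept in the fit. The receptor gene Ppard and the carnitine carrier Slc25a20 were close to their controls. Of the 7 genes that passed the filter on low values (at least 1 rescaled TPM in at least 3 libraries of the batch), 0 rose and 0 fell in limma's test, 4 had an unadjusted p under 0.05, against 27.4% of all 14568 genes tested, of which 5.06% were called. The median log2 change of the 7 genes was -0.35, against -0.02 over all genes tested.

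Pdk4 (chr6:5483351-5496278) had 0.420, 0.439 and 0.468 rescaled TPM in LT-HSC knockouts and 0.984, 2.15 and 1.41 in floxed controls of batch 1. All 3 knockouts lie below all 3 controls, and at less than 1 TPM the values sit near the bottom of what the table holds. Only 2 of the 12 libraries reached 1 TPM, so Pdk4 did not enter the filtered fit. In the fit with no filter it fell (log2 change -0.78 ± 0.14 SE, adjusted p = 0.0362 by limma). Added after the data were seen, the same fit gave -0.49 on the deposited TPM (adjusted p = 0.0155 by limma) and -1.51 with a pseudocount of 0.1 (adjusted p = 0.0425 by limma). Leaving out a library ended the call for floxed control 3 (adjusted p = 0.0501 by limma), knockout 2 (adjusted p = 0.0865 by limma) and knockout 3 (adjusted p = 0.125 by limma), with log2 changes of -0.93 to -0.60 over the 6 libraries.

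Cpt1a (chr19:3322326-3385735), whose core motif is shown above, had 22.7, 17.7 and 18.2 rescaled TPM in LT-HSC knockouts and 31.5, 36.7 and 22.9 in floxed controls. The highest knockout lies just under the lowest control. Its log2 change was -0.59 ± 0.16 SE with an adjusted p of 0.0554 (limma), which passes when floxed control 3 or knockout 1 is left out (adjusted p = 0.0231 and 0.0304 by limma). With any other library left out Cpt1a did not pass, and its adjusted p reached 0.2275 (limma). Hadha (chr5:30119423-30154980) had 28.9, 25.8 and 25.6 rescaled TPM in knockouts and 32.0, 39.4 and 40.2 in floxed controls, with no overlap between the groups. Its log2 change of -0.45 ± 0.12 SE had an adjusted p of 0.05001 (limma), on the threshold, and leaving out floxed control 1 or knockout 1 gave 0.0320 and 0.0349 (adjusted p by limma). Leaving out any other library gave an adjusted p above the threshold, up to 0.2147 (limma). Tested among genes of at least 5 TPM, both fell, with adjusted p of 0.0490 for Cpt1a and 0.0467 for Hadha (limma). On the deposited TPM neither is lower, with log2 changes of 0.01 for Cpt1a and 0.16 for Hadha, beside a median gene at 0.52.

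Angptl4 (chr17:33774900-33781575) had 2.15, 1.96 and 1.57 rescaled TPM in LT-HSC knockouts and 2.64, 2.53 and 3.57 in floxed controls. Its groups do not overlap, and its log2 change of -0.43 ± 0.15 SE missed the threshold (adjusted p = 0.0916 by limma). Plin2 (chr4:86626910-86670217) had 17.3, 17.5 and 14.5 in knockouts and 20.1, 25.2 and 17.97 in floxed controls, again without overlap (log2 change -0.33, 95% interval -0.75 to 0.09, adjusted p = 0.285 by limma). How many of all genes separate in this way was not counted in this or the other comparisons, so separation adds nothing to a test. Acadvl (chr11:70010183-70015428) had 32.5, 33.7 and 26.5 in knockouts and 42.5, 31.0 and 46.2 in floxed controls, and here the groups overlap (log2 change -0.35, adjusted p = 0.175 by limma). On the deposited TPM the log2 changes were -0.0012 for Angptl4, 0.27 for Plin2 and 0.26 for Acadvl (adjusted p = 0.997, 0.266 and 0.373 by limma). For Ppard the log2 change was 0.12 with a 95% interval of -0.31 to 0.54. For Slc25a20 (chr9:108662136-108684642), at 10.2, 8.20 and 8.95 in knockouts and 10.04, 7.30 and 7.72 in floxed controls, it was 0.12 with an interval of -0.20 to 0.44. On the deposited TPM these 2 genes rose, Ppard by 0.67 (adjusted p = 0.0203 by limma) and Slc25a20 by 0.68 (adjusted p = 0.0244 by limma), where 45.2% of all genes tested were called and 44.6% rose. Beside these changes, the sum of 10 erythroid markers was 105 to 198 rescaled TPM in knockouts and 260 to 495 in floxed controls, that of 10 neutrophil markers 325 to 1184 and 152 to 209, and that of 10 B cell markers 252 to 783 and 16.2 to 220. The part of other cells in the changes above was not tested. The number of genes called over the whole table was 737 and ranged from 23 without knockout 3 to 1644 without knockout 1, with 126 without knockout 2 and 399 without floxed control 2.

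**Figure D2:**
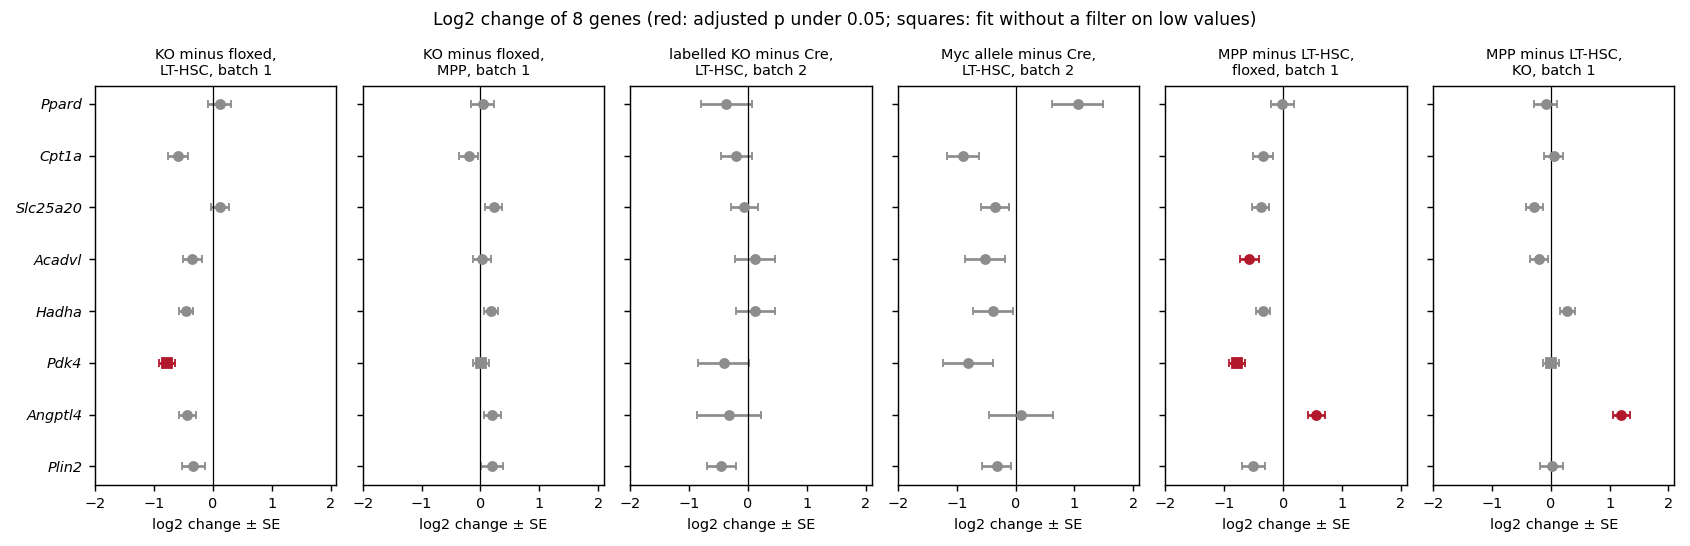
Log2 change ± SE of 8 genes (rows) in 6 comparisons (panels), on the log2(rescaled TPM + 1) scale. Red marks an adjusted p under 0.05 and squares the fit without a filter, used where Pdk4 did not enter the filtered one. Angptl4 lies right of 0 in both MPP panels, at 0.57 in floxed controls and 1.20 in knockouts, and Pdk4 lies at -0.78 both for knockouts against floxed controls in LT-HSC and for MPP against LT-HSC in floxed controls.

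In MPP the same knockout left no call among these genes. Of the 7 tested, 0 rose and 0 fell in limma's test and 0 had an unadjusted p under 0.05, with 0.590% of all genes called. Angptl4 had 5.90, 5.16 and 5.85 rescaled TPM in MPP knockouts and 4.11, 5.31 and 4.91 in MPP floxed controls, and Hadha 35.2, 33.9 and 29.5 in knockouts and 27.2, 30.2 and 29.4 in floxed controls. The ranges of the groups overlap for both genes. Cpt1a had 19.9, 18.7 and 22.0 in knockouts and 22.6, 25.8 and 21.7 in floxed controls, and its log2 change of -0.20 had a 95% interval of -0.55 to 0.16. Pdk4 averaged 0.446 ± 0.085 in knockouts and 0.441 ± 0.065 in floxed controls (SD, n = 3 each), so MPP of either genotype are at the level of LT-HSC knockouts.

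Whether the knockout effect differs between MPP and LT-HSC was tested as an interaction. None of the 7 genes passed in limma's test, 2 had an unadjusted p under 0.05, against 12.9% of all genes, of which 0.0275% were called. The differences of log2 changes (MPP minus LT-HSC) were 0.64 ± 0.21 SE for Angptl4 (adjusted p = 0.296 by limma) and 0.63 ± 0.17 SE for Hadha (adjusted p = 0.254 by limma). For Pdk4 in the fit with no filter it was 0.78 (adjusted p = 0.301 by limma). The knockout effects in the 2 cell types are therefore not shown to differ for any of these genes.

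The lipase inhibitor gene Angptl4 was higher in MPP than in LT-HSC of both genotypes. In floxed controls the dehydrogenase gene Acadvl and Pdk4 were lower in MPP. Acadvl was not called in knockouts (log2 change -0.20, adjusted p = 0.397 by limma). Of the 7 genes tested in floxed controls, 1 rose and 1 fell, and 24.3% of all genes were called, 12.1% higher and 12.2% lower in MPP (on the deposited TPM 15.5% higher and 5.62% lower). The 1 rise and 1 fall are close to the shares of all genes on the rescaled scale. LT-HSC and MPP of one number come from the same pool of animals, per the sample descriptions, and with that pool as a block 1 rose and 3 fell, where 4080 of all 14568 genes were called, 2095 higher and 1985 lower.

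Angptl4 had 4.11, 5.31 and 4.91 rescaled TPM in MPP floxed controls and 2.64, 2.53 and 3.57 in LT-HSC floxed controls. It rose (log2 change 0.57 ± 0.15 SE, adjusted p = 0.0140 by limma), also with the pool as a block (adjusted p = 0.0210 by limma), and leaving out MPP floxed control 2 ended the call (adjusted p = 0.0664 by limma). In knockouts it had 5.90, 5.16 and 5.85 in MPP and 2.15, 1.96 and 1.57 in LT-HSC. Every MPP knockout lies above every LT-HSC knockout, and the rise of 1.20 ± 0.15 SE (adjusted p = 8.63e-05 by limma) passed with any 1 of the 6 libraries left out. It was the 1 call among the 7 genes in knockouts, where 23.7% of all genes were called, 12.1% higher and 11.6% lower in MPP (on the deposited TPM 3.99% higher and 15.5% lower). The rises of Angptl4 also passed on the deposited TPM, by 0.77 in floxed controls (adjusted p = 0.0128 by limma) and 1.04 in knockouts (adjusted p = 0.00134 by limma).

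Acadvl had 24.0, 24.2 and 30.5 rescaled TPM in MPP floxed controls and 42.5, 31.0 and 46.2 in LT-HSC floxed controls. The groups do not overlap, and it fell (log2 change -0.58 ± 0.16 SE, adjusted p = 0.0185 by limma; with the pool as a block 0.0109). The call was lost on the deposited TPM (log2 change -0.30, adjusted p = 0.401 by limma). It was also lost without LT-HSC floxed control 1 or 3 or MPP floxed control 1 or 2 (adjusted p = 0.0644, 0.0505, 0.0730 and 0.0755 by limma). Pdk4 had 0.502, 0.373 and 0.447 in MPP floxed controls against 0.984, 2.15 and 1.41 in LT-HSC floxed controls. It fell in the fit with no filter (log2 change -0.78, adjusted p = 0.00426 by limma) and passed with any 1 of the 6 libraries left out.

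Hadha had 27.2, 30.2 and 29.4 rescaled TPM in MPP floxed controls and 32.0, 39.4 and 40.2 in LT-HSC floxed controls, and Plin2 10.1, 19.3 and 15.2 in MPP and 20.1, 25.2 and 17.97 in LT-HSC. Their log2 changes were -0.34 (adjusted p = 0.0558 by limma) and -0.51 (adjusted p = 0.0748 by limma), and with the pool as a block both fell (adjusted p = 0.0313 for Hadha and 0.0329 for Plin2 by limma). Slc25a20 had 5.78, 5.69 and 6.94 in MPP and 10.04, 7.30 and 7.72 in LT-HSC, which do not overlap, with a log2 change of -0.38 and an adjusted p of 0.0761 (limma). Cpt1a, at 22.6, 25.8 and 21.7 in MPP and 31.5, 36.7 and 22.9 in LT-HSC, overlapped (log2 change -0.34, adjusted p = 0.148 by limma). Ppard did not move beyond its error (log2 change -0.01, 95% interval -0.44 to 0.41). In knockouts Hadha was at 35.2, 33.9 and 29.5 in MPP and 28.9, 25.8 and 25.6 in LT-HSC (log2 change 0.28, adjusted p = 0.110 by limma). MPP of floxed controls carried B cell markers summing to 2055 to 11180 rescaled TPM, mostly Igkc, against 16.2 to 220 in LT-HSC floxed controls, and the part of these transcripts in the changes was not tested.

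Batch 2 sets LT-HSC labelled knockout, whose Rxra splice share and Rxrb level above go against that label, beside a Cre control and the Myc allele group. Rxra mRNA of the labelled knockout spread to both sides of the Cre controls. No gene of the set was called in any of the 3 comparisons of batch 2. For the labelled knockout against the Cre control, 8 of the 10 genes were tested, 0 rose, 0 fell and 0 had an unadjusted p under 0.05 in limma's test, with 0.0592% of all genes called. Cpt1a had 30.2, 35.95 and 53.6 rescaled TPM in labelled knockouts and 38.9, 47.1 and 48.8 in Cre controls, and Hadha 38.8, 43.0 and 39.6 in labelled knockouts and 37.8, 40.0 and 33.3 in Cre controls. The ranges overlap for both genes, and Hadha's log2 change of 0.13 had a 95% interval of -0.61 to 0.86. Pdk4 had 0.183, 0.621 and 2.41 in labelled knockouts and 0.994, 2.66 and 1.12 in Cre controls. The first and second labelled knockouts lie below all Cre controls and the third lies between them (log2 change -0.41, 95% interval -1.36 to 0.53).

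The Myc allele group had unadjusted p under 0.05 for Ppard and Cpt1a against both other groups of the batch, and neither gene passed adjustment. Ppard had 5.98, 11.9 and 5.30 rescaled TPM in the Myc allele group and 2.96, 0.599 and 3.68 in labelled knockouts, without overlap. Its log2 change was 1.42 ± 0.44 SE (adjusted p = 0.835 by limma), and against Cre controls it was 1.05 ± 0.44 SE (adjusted p = 0.523 by limma). Cpt1a had 33.1, 17.4 and 22.8 in the Myc allele group and 30.2, 35.95 and 53.6 in labelled knockouts, which overlap (log2 change -0.69, adjusted p = 0.875 by limma). Against Cre controls Cpt1a lay lower without overlap (log2 change -0.89 ± 0.27 SE, adjusted p = 0.523 by limma). Of all genes, 0 were called against labelled knockouts (733 had an unadjusted p under 0.05) and 0.0814% against Cre controls.

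Libraries of the Myc allele group differed widely among themselves. Acadvl was 68.6, 31.4 and 21.1 rescaled TPM, Hadha 53.3, 16.1 and 25.5, and Angptl4 2.03, 8.13 and 0.519 in its libraries 1, 2 and 3. Library 1 was the highest of the group for Acadvl, Hadha, Cpt1a and Slc25a20, and library 2 for Angptl4 and Ppard. Pdk4 was at 0.409, 0.637 and 0.252, below all 3 Cre controls (log2 change -0.81, 95% interval -1.76 to 0.14). Without library 1 of the group, 791 genes were called against Cre controls and 2 of these genes fell, Cpt1a among them (adjusted p = 0.0406 by limma). With any other library left out Cpt1a did not pass, and its adjusted p reached 0.8591 (limma).

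Over both batches, with batch as a term, knockouts and labelled knockouts (6 libraries) were set against floxed and Cre controls (6 libraries). The Rxra splice share and Rxrb level of the labelled knockouts go against that label, as given above, while their Rxra mRNA spread to both sides of the Cre controls. Floxed controls lack Cre and Cre controls carry it. The joint change and its difference between batches are therefore not measures of RXR loss alone. Of the 8 genes tested, 0 were called in limma's test and 4 had an unadjusted p under 0.05, where 0% of 14323 genes were called and 2899 had an unadjusted p under 0.05. Pdk4 had the largest log2 change, -0.60 ± 0.25 SE (adjusted p = 0.207 by limma), followed by Cpt1a at -0.40 ± 0.16 SE (adjusted p = 0.189), Plin2 at -0.39 ± 0.14 SE (adjusted p = 0.146) and Angptl4 at -0.38 ± 0.15 SE (adjusted p = 0.195, each by limma). Within batch 1 the changes of Cpt1a and Plin2 were -0.59 and -0.33, and within batch 2 they were -0.20 and -0.45. Without labelled knockout 6, 691 genes were called, and Cpt1a (adjusted p = 0.0479 by limma) and Pdk4 (adjusted p = 0.0400 by limma) fell. With any other library left out neither passed, and their adjusted p reached 0.3744 for Cpt1a and 0.3705 for Pdk4 (limma). Without labelled knockout 6, Pdk4 reached 1 rescaled TPM in controls alone. The filter therefore favoured its fall there, and that call is no support for one. The change against controls did not pass as different between batches for any of the 8 genes, with 0.140% of all genes called. Hadha came nearest, with a difference of 0.58 ± 0.19 SE (batch 2 minus batch 1, adjusted p = 0.336 by limma), and on the deposited TPM that difference was -0.28.

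The wider pathway was read from 9 lists of 163 genes, the 10 above included. In LT-HSC of batch 1, 2 of 131 tested genes rose and 12 fell in knockouts (10.7% called, against 5.06% of all genes). Scd1, whose call the filter favoured as given below, is among the 12. On the deposited TPM 44 rose and 2 fell, where 44.6% of all genes rose and 0.58% fell. The direction of the lists as a whole therefore depends on the scale, as that of the whole table does. Rises of single lists on the deposited TPM below stand beside the same 44.6%. Among 27 tested genes of mitochondrial oxidation 1 rose and 1 fell, with a median log2 change of -0.11 against -0.02 for all genes, and on the deposited TPM 9 rose and 0 fell. The gene that fell is Acads, the short-chain acyl-CoA dehydrogenase, at 4.82 ± 0.82 rescaled TPM in knockouts and 7.78 ± 0.17 in floxed controls (SD, n = 3 each; log2 change -0.60), and Acad12 of the same family rose by 0.65. Of 20 genes of peroxisomal oxidation 0 rose and 0 fell, and 10 rose on the deposited TPM. The 2 genes that fell on both scales are Acsl3 and Klf10.

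In fatty acid synthesis 4 of 12 tested genes fell and 0 rose, where 2.7% of all genes fell and 2.35% rose. On the deposited TPM 2 rose and 0 fell, where 44.6% of all genes rose. Of the 12 genes, 11 were tested on the deposited TPM. The list had a median log2 change of -0.34 on the rescaled scale and 0.20 on the deposited TPM, where the median gene was at 0.52. The genes that fell are Fasn (fatty acid synthase), at 7.62 ± 0.59 rescaled TPM in knockouts and 16.6 ± 5.2 in floxed controls (SD, n = 3 each), the desaturases Scd1 and Scd2, and Acly, which makes cytosolic acetyl-CoA. Scd1 averaged 0.355 ± 0.083 in knockouts and 1.54 ± 0.42 in floxed controls (SD, n = 3 each), passed the filter only through the floxed controls in which it is high, and was not tested on the deposited TPM. The filter therefore favoured the fall of Scd1, which is no support for a change of the list. Of 16 genes of fatty acid activation and the carnitine shuttle, 1 fell. It is Acsl3, an acyl-CoA synthetase of lipid droplets, at 5.89 ± 0.16 in knockouts and 14.3 ± 2.2 in floxed controls (SD, n = 3 each; log2 change -1.15, adjusted p = 0.00272 by limma), and it also fell on the deposited TPM (log2 change -0.59, adjusted p = 0.0470 by limma). Other fallen genes were Ucp2, the uncoupling protein of blood cell mitochondria (135 ± 12 in knockouts and 243 ± 30 in floxed controls, SD, n = 3 each), the PPAR co-regulator Lpin1, the lipolysis activator Abhd5, Pdha1, the pyruvate dehydrogenase subunit that Pdk4 acts on, and Klf10. Vldlr, the receptor for very low-density lipoprotein, rose from the list of other PPAR targets (log2 change 1.53, adjusted p = 0.0138 by limma), also on the deposited TPM (2.07).

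In MPP 1 of 131 pathway genes was called for the knockout (0.763%, against 0.590% of all genes). Klf10, a transcription factor gene, fell by 1.05 on the log2 scale (12.6 ± 1.0 rescaled TPM in knockouts and 27.1 ± 1.8 in floxed controls, SD, n = 3 each; adjusted p = 0.00858 by limma), and its fall in LT-HSC was 1.06 on that scale, also called on the deposited TPM in both cell types. In batch 2, over both batches and in both interactions, 0 of the pathway genes passed limma's test. The numbers at an unadjusted p under 0.05 for the whole tables there were 525 of 13521 for the labelled knockout and 2899 of 14323 over both batches.

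Between the cell types, 6 pathway genes rose and 21 fell in MPP against LT-HSC of floxed controls (20.6% of 131 called, against 24.3% of all genes), and 11 rose and 7 fell on the deposited TPM. Each of the 9 lists had at least 1 fall, where 12.2% of all genes fell and 12.1% rose. In mitochondrial oxidation 3 of 27 fell and 0 rose, and the falls are close to the share of all genes. Those that fell are Acadvl, Acadm (the medium-chain dehydrogenase, 20.0 ± 1.5 rescaled TPM in MPP and 27.7 ± 3.9 in LT-HSC, SD, n = 3 each) and Decr1. On the deposited TPM 0 of that list fell and 1 rose. In peroxisomal oxidation 4 of 20 fell, among them Amacr (0.831 ± 0.076 in MPP and 2.15 ± 0.09 in LT-HSC, SD, n = 3 each) and Ehhadh, and 2 rose, among them the fatty acid transporter gene Abcd2. Abcd2 did not enter the fits of LT-HSC alone, so it passed the filter only with MPP counted, where it is high. Amacr did not pass the filter through the MPP floxed controls, where it is low. The filter therefore favoured both calls, and neither is support for a change of the list. Pdk2 and Pdk3, which act on pyruvate dehydrogenase as Pdk4 does, both fell, by 0.78 and 0.41 on the log2 scale, and neither fall passed on the deposited TPM. Ppargc1a, the coactivator that drives mitochondrial genes, had 1.75 ± 0.29 in MPP and 3.89 ± 1.32 in LT-HSC (SD, n = 3 each; log2 change -0.80, adjusted p = 0.00961 by limma). In knockouts 13 rose and 10 fell (17.6% called, against 23.7% of all genes), and on the deposited TPM 4 rose and 19 fell. Pdk2 and Pdk3 fell there too, and Ucp2 and Fasn rose in MPP against LT-HSC knockouts, in which both genes had fallen against floxed controls; these comparisons share the LT-HSC knockout libraries.

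**Figure D3:**
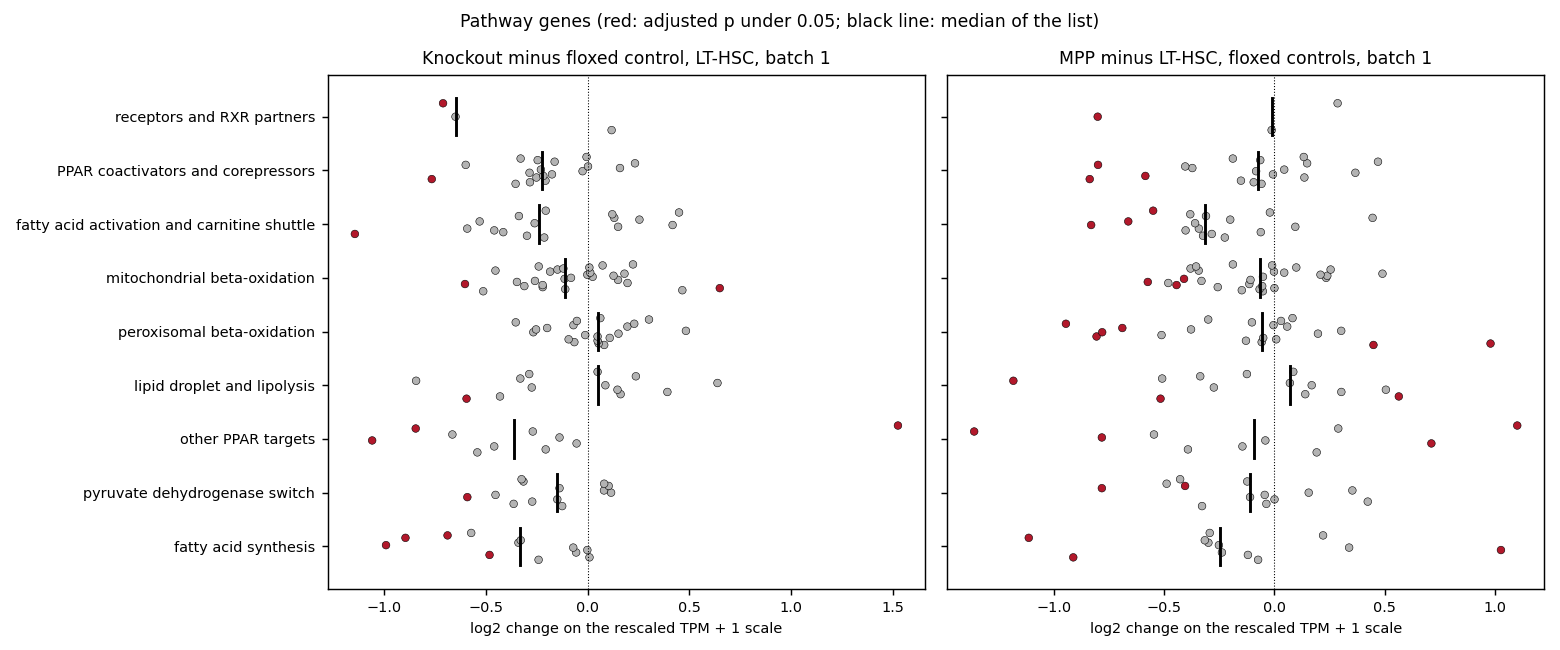
Log2 change (horizontal axis, log2(rescaled TPM + 1) scale) of each tested gene of 9 pathway lists, for knockouts against floxed controls in LT-HSC of batch 1 (left) and MPP against LT-HSC in floxed controls (right). Red points have an adjusted p under 0.05 and black lines are list medians. On the left the 4 red points of fatty acid synthesis lie left of 0, and on the right the red points of mitochondrial oxidation do. Among the 4 is Scd1, whose call the filter on low values favoured.

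Splicing was read from deposited percent-spliced-in values (PSI, a fraction of 0 to 1). The table holds 6 events in these genes, 4 in Acadvl, 1 in Cpt1a and 1 in Slc25a20, each of the intron retention type. All 6 were tested in batch 1 and the Cpt1a event alone in batch 2, where the others lacked a value in at least 1 library, and 0 of those tested passed (adjusted p under 0.05 by limma and a difference of at least 0.1). The share of all events that passed was 0.127% for the knockout in LT-HSC of batch 1 and 0.127% in MPP, 0.402% for MPP against LT-HSC in floxed controls, 0.244% in knockouts and 0.0458% for the difference between cell types. In batch 2 it was 0.0316% for the labelled knockout, and for the Myc allele group 0.0158% against labelled knockouts and 0.0198% against Cre controls. Retention of 1 Acadvl intron (chr11:70014858-70015117) had a value above 0 in 5 libraries. It was 0.636 in MPP knockout 2, 0.611 in MPP floxed control 2, 0.312 and 0.440 in LT-HSC knockouts 2 and 3 and 0.233 in LT-HSC floxed control 2. It was 0 in 13 libraries and had no value in 3. Replicate 2 of the knockouts and replicate 2 of the floxed controls, which are separate pools, each showed it in both cell types, and the number of reads behind these fractions is unknown.

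**Figure D4:**
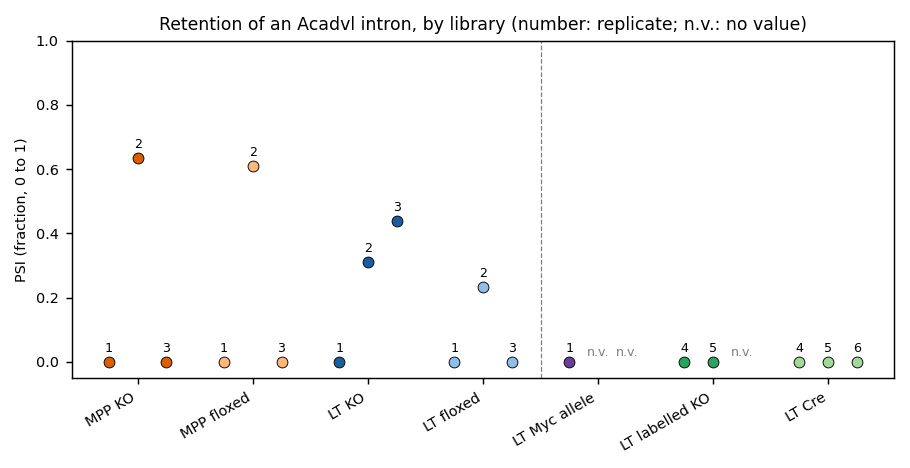
PSI (vertical axis, fraction of 0 to 1) for retention of the Acadvl intron at chromosome 11 in each library, in 7 groups of 3, with the replicate number over each point and n.v. where the table holds no value. The libraries numbered 2 in the 4 groups of batch 1 lie between 0.233 and 0.636, and the 3 Cre controls lie at 0.

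As a description over the 21 libraries, which share groups and batches, the genes whose log2 levels were most like these were named, out of 15115 searched. Cpt1a went most closely with Map7 (Pearson's r = 0.924), Mcur1 and Ankrd13a. Acadvl went with Sdha (r = 0.937), a subunit of succinate dehydrogenase, Max, the partner protein of Myc, and Zfp39, and Hadha with Aco1 (r = 0.893), Rbm27 and Sprtn. Ppard went with the transcription factor gene Bach2 (r = 0.887), Gemin4 and Srd5a3, Slc25a20 with Irgm2 (r = 0.851), Slc50a1 and Dnajc18, and Plin2 with Dgcr2 (r = 0.801), Dapk1 and Uri1. Pdk4 went with Cyp26b1 (r = 0.799), which breaks down retinoic acid, Afg3l2 and Notch2.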

How the data were processed

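RNA of 21 libraries (5 ng of RNA each) is given as TPM that the authors deposited per Ensembl gene, made with kallisto on mm10 per the submitters' processing notes, with no version or transcript set named in the sources used. Splicing was deposited as PSI fractions for 46443 events, with STAR 2.6 named in those notes; the table was already selected, its smallest spread being 0.15. Of the identifiers, 27458 (94.73%) had a symbol. TPM were divided by median-of-ratios size factors, and limma 3.58.1 (R 4.3.3, with a trend) tested genes that reached 1 rescaled TPM in 3 or more of the libraries fitted, on log2(rescaled TPM + 1). Fits held the 12 libraries of batch 1, the 9 of batch 2, or the 12 LT-HSC knockouts and controls with batch as a term. PSI were tested with limma where every library of a fit had a value. The fits were tested on simulated data. Alternatives were deposited TPM, quantile normalisation, a pseudocount of 0.1, no filter, at least 5 TPM, a replicate block and each library left out. The genes, lists and tests were chosen with earlier results of these data known. All 10 genes are described, and from each pathway list up to 4 genes a comparison with the smallest adjusted p among those that passed; 1 such gene is not reported here. Numbers pair LT-HSC with MPP of batch 1, because the sample descriptions give both the same pool name; their deviations correlated at 0.051 to 0.083 in floxed controls and 0.158 to 0.543 in knockouts. Nothing says that pools within a group were separate animals beyond their names, so p-values measure the spread between these libraries. The highest correlation of log2 values between any pair of libraries was 0.987. Gene positions and promoters are from RefSeq, GRCm38.p6. Figures used Python 3.11.15 and matplotlib 3.10.9.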

Additional observations from a re-analysis of the deposited data

How the results depend on the processing

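Of 95 log2 changes tested for these genes, Rxra and Rxrb, 39 changed sign under at least 1 alternative, and 0 of the 39 were called on either side. On the deposited TPM, 4 values for the knockout in LT-HSC of batch 1 changed sign, Cpt1a to 0.0125, Plin2 to 0.27, Acadvl to 0.26 and Hadha to 0.16; the difference between batches became -0.28 for Hadha and -0.23 for Rxrb, the labelled knockout's change -0.12 for Hadha, and that of MPP against LT-HSC in floxed controls 0.23 for Ppard (0.012 with quantile normalisation). With each library left out, Ppard ranged over -0.038 to 0.27 for the knockout in LT-HSC of batch 1 and -0.17 to 0.14 for MPP against LT-HSC in floxed controls, and Rxrb over -0.23 to 0.0085 for the labelled knockout. The number of the 10 genes called for the knockout in LT-HSC of batch 1 was 0. It was 2 on the deposited TPM (Ppard and Slc25a20, which rose), 1 with no filter (Pdk4, which fell) and 2 at 5 TPM or more (Cpt1a and Hadha, which fell). For MPP against LT-HSC in floxed controls the number was 2, and 1 on the deposited TPM.

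Counts of all genes called moved by over 1.5 times as follows. On the deposited TPM there were 6700 in place of 737 for the knockout in LT-HSC of batch 1 (6614 higher and 86 lower, against 343 and 394), 48 in place of 86 in MPP, 12 in place of 4 for the difference between cell types, 61 in place of 0 over both batches and 184 in place of 20 for the difference between batches. With no filter there were 266 for the knockout in LT-HSC, 7 for the cell type difference, 17 in place of 8 for the labelled knockout, 1 in place of 0 for the Myc allele group against it, 18 in place of 11 against Cre controls, and 39 for the batch difference. A pseudocount of 0.1 and a minimum of 5 TPM each gave 0 for the cell type difference. Batch 1 alone gave 737 and batch 2 alone 8, against 0 over both.

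With the replicate block, 148 genes were called for the knockout in MPP, 0 for the cell type difference, and 4 of the 10 genes for MPP against LT-HSC in floxed controls; it changed no other call of these genes. Knockout and control numbers mark no shared pool, and their deviations correlated at -0.143 to 0.283.

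With each library left out, the knockout in LT-HSC gave 23 to 1644 genes (0 to 2 of the 10), in MPP 19 to 83, MPP against LT-HSC 2378 to 4414 in floxed controls (1 to 3 of the 10) and 2193 to 3309 in knockouts, the cell type difference 0 to 4, the labelled knockout 4 to 8, the Myc allele group 0 to 2 against it and 4 to 791 against Cre controls (0 to 2 of the 10), both batches 0 to 691 (0 to 2 of the 10) and the batch difference 9 to 141. The count in MPP fell to 19 and 20 without floxed controls 1 and 2 and to 21 and 36 without knockouts 3 and 2, and the batch difference rose to 141 without labelled knockout 6. The cause was not tested. TPM keep no depth, so counting error is unknown, and it weighs most on Pdk4, Ppara and Pparg.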
